A study of Mus musculus with 6 samples.

Results

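miR-122 is the miRNA made by hepatocytes in the largest amount. The mir-122 and mir-122b hairpins at its locus give 4 catalogued mature miRNAs, described here in vesicles from palmitic acid-treated and control hepatocytes. They are mmu-miR-122-5p and mmu-miR-122-3p, the arms of the mir-122 hairpin, and mmu-miR-122b-5p and mmu-miR-122b-3p, the arms of the mir-122b hairpin (the species prefix is left out from here on). They were chosen by name, as 4 of the 1976 mouse miRNAs in the deposited table, of which 1058 had a value above 0 in at least 1 library. In RefSeq's GRCm38.p6 annotation, Mir122 occupies bases 65248861 to 65248926 of chromosome 18 and Mir122b bases 65248863 to 65248921. GENCODE M21, on the same build, places Mir122 on the plus strand within an exon (65245359 to 65252621) of the long non-coding RNA gene AC157910.3. Small RNA was sequenced from extracellular vesicles, which the labels call exosomes, released by primary hepatocytes of wild-type C57BL/6J mice. Vesicles came from cells given palmitic acid, a saturated fatty acid of diet and blood, at 600 µM (3 libraries), or from control cells given 0 µM (3 libraries). No label ties a library to its own animal or culture, and every p-value here therefore measures the spread among 3 libraries per group, whose source may be technical.

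A miRNA hairpin is cut by Dicer into a duplex, 1 arm of which is kept in an Argonaute protein as the guide while the other, the passenger, is usually degraded. In mir-122 the 5p arm is the guide. miR-122-5p holds back transcripts of cholesterol and fatty acid metabolism and of growth genes in the liver, and it is released in vesicles and into blood. The mir-122b hairpin is catalogued on the opposite strand of the same DNA, so that its 3p arm stands opposite the 5p arm of mir-122, and its 5p arm opposite the 3p arm. Whether the authors counted reads by strand is not given in the sources used here, so reads of the 2 hairpins cannot be separated with certainty.

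Other mouse miRNAs show what such an arrangement looks like in sequence. In 4 pairs with reads of both partners in every library, the mature miRNAs lie opposite each other, and the 19 or 20 bases they share, in capitals, are exact reverse complements (RNA, 5′ to 3′, from RefSeq's table for GRCm38.p6). The pairs are miR-126b-5p (chr2:26591399-26591420, minus strand) with miR-126a-3p (chr2:26591402-26591423, plus), and miR-30f (chr4:120772621-120772642, plus) with miR-30e-3p (chr4:120772618-120772639, minus). They also include miR-3074-5p (chr13:63301249-63301270, minus) with miR-24-3p (chr13:63301251-63301272, plus) and miR-203b-5p (chr12:112130927-112130946, minus) with miR-203-3p (chr12:112130927-112130948, plus).
miR-126b-5p: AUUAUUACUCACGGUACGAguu
miR-126a-3p: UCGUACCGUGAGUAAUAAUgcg
miR-30f: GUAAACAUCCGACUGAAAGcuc
miR-30e-3p: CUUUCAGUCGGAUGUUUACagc
miR-3074-5p: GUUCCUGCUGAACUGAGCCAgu
miR-24-3p: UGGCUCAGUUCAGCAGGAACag
miR-203b-5p: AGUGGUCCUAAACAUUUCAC
miR-203-3p: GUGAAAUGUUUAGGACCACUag

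The libraries differed in depth in ways that touch every value below. Reads recovered from the deposited values totalled 613479 to 799124 per library with palmitic acid and 95233 to 657579 in controls. Reads other than those of the locus numbered 534299 to 676804 with palmitic acid and 29335 to 80733 in controls. Control replicate 2 stood apart from the other controls by its high miR-122 values, so results are also given without it where that moves them. The deposited values are log2(adjusted count + 1), where the adjusted count is a read number rescaled by library. The adjusted counts still summed to different totals, 266011 to 390389 per library with palmitic acid and 295383 to 1783794 in controls. Fold changes below are on that scale, as palmitic acid minus control.

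miR-122-5p, the guide strand, fell in vesicles of palmitic acid-treated hepatocytes. Its deposited log2 values were 15.58, 14.62 and 15.26 in palmitic acid replicates 1, 2 and 3, against 17.35, 20.34 and 18.44 in control replicates 1, 2 and 3. Every palmitic acid library lay below every control library, and control replicate 2 was the highest of all. Among all tested miRNAs, 68% had groups that did not overlap, 19.3% as lower and 48.6% as higher with palmitic acid. These values rested on about 100138, 72015 and 65889 reads with palmitic acid and 53760, 488258 and 164829 reads in controls. The log2 change was -3.56 (SE 0.98, 95% interval -5.82 to -1.30, limma adjusted p = 0.0141). Of the 181 miRNAs tested in the same fit, 56.4% passed the threshold of 0.05, 42% as higher and 14.4% as lower. In 33 of the 181 only palmitic acid libraries reached the adjusted count of 10 that the filter on low values asks for, and in 3 only controls did, so those could move in 1 direction only; of the other 145, 43 passed as higher and 23 as lower. The call was lost without palmitic acid replicate 1, 2 or 3 (limma adjusted p = 0.0778, 0.0892 and 0.0790), and the adjusted p ran from 1.6e-05 to 0.105 over 17 alternatives. The change was -2.74 without control replicate 2 and -4.24 without control replicate 1. The reads of miR-122-5p overlapped between the groups, and all values are relative to the other miRNAs of a library. Fewer vesicles that carry miR-122, less miR-122 per vesicle, and more of other miRNAs beside it cannot be told apart in bulk vesicle preparations.

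miR-122b-3p, on the opposite strand, fell by nearly the same amount. Its deposited log2 values were 13.40, 12.56 and 12.93 with palmitic acid and 15.20, 17.87 and 16.20 in controls, again with no overlap between the groups. The log2 change was -3.46 (SE 0.75, 95% interval -5.19 to -1.73, limma adjusted p = 0.00477). It was -2.74 without control replicate 2 and -4.07 without control replicate 1, and it passed the threshold in each of 17 alternatives (adjusted p 4.0e-05 to 0.0401).

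The other arms of both hairpins were rare and did not pass the test. miR-122-3p had deposited log2 values of 4.67, 4.92 and 5.43 with palmitic acid, against 4.53, 4.34 and 2.95 in controls. That is 50, 84 and 71 reads with palmitic acid, and 7, 7 and 3 in controls. The groups did not overlap, with the lowest palmitic acid value just above the highest control value. The log2 change was 1.07 (SE 0.83, 95% interval -0.86 to 2.99, limma adjusted p = 0.289), and its sign depended on the scale, since with library totals outside the locus it was -0.0249. miR-122b-5p had deposited log2 values of 4.21, 4.54 and 5.24 with palmitic acid and 2.95, 6.14 and 4.37 in controls, from 36, 64 and 62 reads with palmitic acid and 2, 26 and 9 in controls. Its palmitic acid values lay inside the control range, at a log2 change of 0.18 (SE 1.02, 95% interval -2.17 to 2.53, limma adjusted p = 0.879), which turned negative under 3 scalings and without control replicate 1 or palmitic acid replicate 3.

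**Figure D1:**
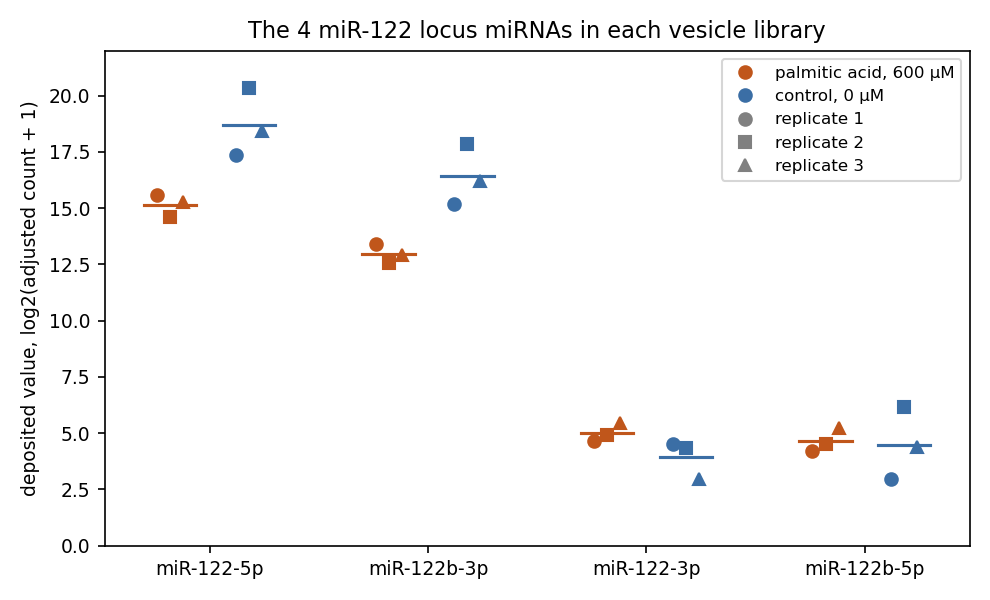
Deposited log2 value of each of the 4 miRNAs in every library, palmitic acid left of control, with the replicate shown by the marker and the group mean by a line. The palmitic acid libraries lie below all controls for miR-122-5p (14.62 to 15.58 with palmitic acid, 17.35 to 20.34 in controls) and miR-122b-3p (12.56 to 13.40 with palmitic acid, 15.20 to 17.87 in controls), while the rare arms lie between 2.95 and 6.14 in both groups.

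The median tested miRNA changed by 1.94 (1.05 over the 145 that did not pass the filter through 1 group alone), so levels also have to be read against that shift. Relative to 1.94, miR-122-5p stood at -5.50, miR-122b-3p at -5.40, miR-122b-5p at -1.76 and miR-122-3p at -0.87. The miRNAs whose direction the filter fixed raise that median. Against 1.05 all 4 members would stand higher, and miR-122-3p, which changed by 1.07, would lie beside the median. Under the other scalings (library totals with and without the locus, upper quartile, centring) the change of miR-122-5p lay between -4.71 and -2.58 and that of miR-122b-3p between -4.61 and -2.49.

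The locus took a small part of palmitic acid libraries and most of the control libraries. As a share of the library sum of adjusted counts, miR-122-5p held 12.5%, 9.45% and 10.7% in palmitic acid replicates 1, 2 and 3, against 56.5%, 74.3% and 65.3% in control replicates 1, 2 and 3. miR-122b-3p held 2.76%, 2.27% and 2.14% with palmitic acid, against 12.7%, 13.5% and 13.8% in controls. The control shares of miR-122b-3p were close to each other (13.3% ± 0.553, SD, n = 3), whereas those of miR-122-5p spread more widely (65.4% ± 8.89, SD, n = 3). Neither share overlapped between groups. With the other 3 members left out of the library sum, the share of miR-122b-3p was 2.69% ± 0.410 with palmitic acid and 40.5% ± 11.5 in controls (SD, n = 3 each), where the control libraries were no longer close to each other (29.3%, 52.3% and 39.9%). Reads of the 2 hairpins could not be separated with certainty, so a sum over the locus may count some molecules under both names. The locus as a whole held 13.3% ± 1.82 with palmitic acid and 78.7% ± 9.25 in controls (SD, n = 3 each), with a two-sided exact permutation p = 0.1, the smallest that 3 libraries against 3 allow. Shares computed from recovered reads differed from these by less than the spread between replicates. Those reads were recovered from the same deposited values, so this is no independent check. The Clopper-Pearson 95% intervals of single shares of reads were narrow, such as 9.39% to 9.52% for miR-122-5p in palmitic acid replicate 2 and 74.1% to 74.4% in control replicate 2, and describe the counting of reads alone and not the molecules behind PCR copies.

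**Figure D2:**
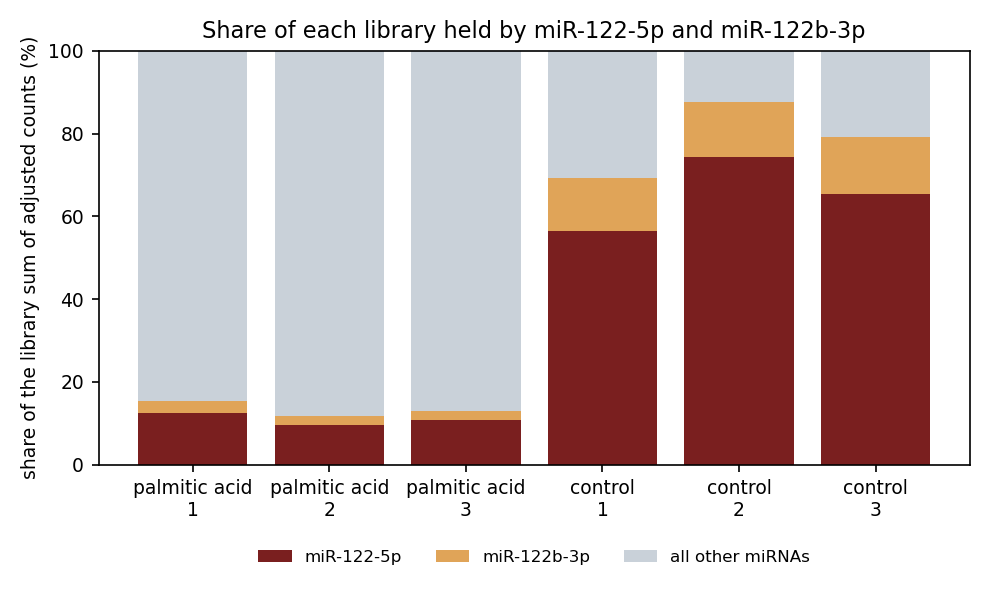
Share of each library's sum of adjusted counts held by miR-122-5p, miR-122b-3p and all other miRNAs (the rare arms, each under 0.02%, are too small to see). miR-122-5p holds 9.45% to 12.5% of palmitic acid libraries and 56.5% to 74.3% of control libraries.

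The rare arms held shares of another order. miR-122b-5p took 0.00448%, 0.00837% and 0.0101% of the library sum with palmitic acid and 0.00227%, 0.00390% and 0.00360% in controls, without overlap (exact permutation p = 0.1). miR-122-3p took 0.00624%, 0.0110% and 0.0116% with palmitic acid and 0.00746%, 0.00108% and 0.00124% in controls, with overlap through control replicate 1 (exact permutation p = 0.2). Each of these shares has miR-122-5p in its denominator. With the other 3 members left out of the library sum, the groups of both rare arms overlapped (exact permutation p = 0.3 for miR-122b-5p and 0.9 for miR-122-3p).

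In rank by adjusted count, miR-122-5p stood at 3, 5 and 3 in the palmitic acid libraries and at 1 in each control library. miR-122b-3p stood at 8, 8 and 9 with palmitic acid and at 2 in each control library. In palmitic acid replicates 1 and 2, miR-21a-5p was at rank 1 and miR-148a-3p at rank 2, and in replicate 3 these were at ranks 2 and 1. miR-122-3p ranked between 114 and 142 with palmitic acid and between 124 and 166 in controls, and miR-122b-5p between 118 and 164 with palmitic acid and between 75 and 168 in controls. The ranks of the rare arms thus overlapped between the groups, while those of the abundant arms did not.

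A ratio of arms within a library cancels any scaling factor of that library, and both hairpins changed in this measure. The log2 ratio of miR-122-5p to miR-122-3p, with 0.5 added to each adjusted count, was 10.94, 9.72 and 9.84 with palmitic acid, against 12.85, 16.03 and 15.58 in controls. All palmitic acid ratios were below all control ratios, and control replicate 1 was nearest to them. The change was -4.66 (SE 1.27, 95% interval -7.39 to -1.92, limma adjusted p = 0.0177 over 24 hairpins with both arms measured; exact permutation p = 0.1). Of those hairpins 37.5% passed, 12.5% with a lower and 25% with a higher ratio of 5p to 3p. Separation was not particular to this locus, since the groups did not overlap in most of those hairpins, mir-30a and mir-151 among them. The call was lost without palmitic acid replicate 1, 2 or 3 (limma adjusted p = 0.0797, 0.103 and 0.0887), and the change was -5.64 without control replicate 1 and -4.05 without control replicate 2.

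In reads, 49.9, 117 and 108 miR-122-3p reads were found per 100000 reads of miR-122-5p with palmitic acid, against 13.0, 1.43 and 1.82 in controls. As a share of the reads of both arms, miR-122-3p held 0.0499% (95% Clopper-Pearson interval 0.0370 to 0.0658), 0.117% (0.0929 to 0.144) and 0.108% (0.0841 to 0.136) with palmitic acid. The control shares were 0.0130% (0.00524 to 0.0268), 0.00143% (0.000576 to 0.00295) and 0.00182% (0.000375 to 0.00532). The intervals of all palmitic acid libraries lay above those of all control libraries, although the control shares rested on 7, 7 and 3 reads of the 3p arm.

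The mir-122b hairpin, whose abundant arm is the 3p one, moved the other way in the ratio of 5p to 3p. Its log2 ratio was -9.23, -8.05 and -7.71 with palmitic acid and -12.35, -11.74 and -11.87 in controls, a change of 3.66 (SE 1.16, 95% interval 1.16 to 6.16, limma adjusted p = 0.0268; exact permutation p = 0.1). The groups did not overlap, as in most of the 24 hairpins. Without palmitic acid replicate 1, 2 or 3 it did not pass (limma adjusted p = 0.0797, 0.126 and 0.119). Per 100000 reads of miR-122b-3p there were 163, 369 and 471 reads of miR-122b-5p with palmitic acid, and 16.5, 29.4 and 25.8 in controls. In both hairpins, then, the rare arm was more frequent beside its abundant arm in palmitic acid vesicles. These are not 2 independent results. The abundant arms changed together (miR-122-5p -3.56, miR-122b-3p -3.46), neither rare arm passed by itself, and reads of the 2 hairpins could not be separated with certainty. The other hairpins with a lower ratio of 5p to 3p, named after their values were seen, were mir-193a (-6.54, SE 1.52, limma adjusted p = 0.0177) and mir-192 (-3.73, SE 1.19, limma adjusted p = 0.0268). miR-192-3p had no read in any control library and miR-193a-3p had 0, 3 and 0, so those ratios depend on the value given to 0 reads. The mir-192 call did not hold in 6 of 11 alternatives (limma adjusted p up to 0.320), and its change was -1.12 with 5 added to each arm. The mir-193a call was lost in 3 of 11, among them the fits without palmitic acid replicate 1 (limma adjusted p = 0.0797) or 2 (0.102).

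**Figure D3:**
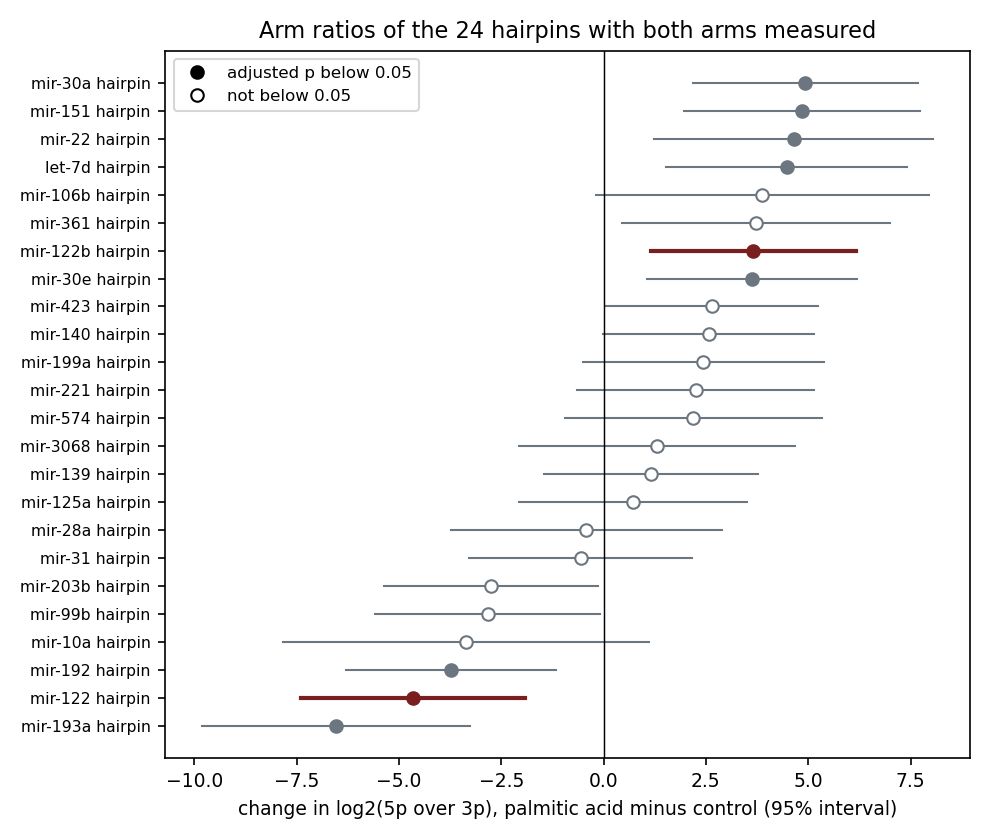
Change in log2(5p over 3p) between palmitic acid and control for the 24 hairpins with a mean adjusted count of at least 10 in each arm, with 95% intervals from limma and filled points where the adjusted p is below 0.05. The mir-122 hairpin stands at -4.66 and the mir-122b hairpin at 3.66, among 9 filled points in both directions.

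The abundant arms of the opposing hairpins kept a proportion that differed between the groups by less than the spread between replicates. Whether the same molecules were counted under both names was not tested. There were 22.07, 24.06 and 19.97 miR-122b-3p reads per 100 reads of miR-122-5p with palmitic acid, and 22.56, 18.14 and 21.17 in controls. The groups overlapped, with means of 22.03 ± 2.05 with palmitic acid and 20.62 ± 2.26 in controls (SD, n = 3 each). On the log2 scale the ratio was -2.19 ± 0.13 with palmitic acid and -2.28 ± 0.16 in controls, a difference of 0.10 (exact permutation p = 0.5), while the levels of both miRNAs spanned more than 5 log2 units over the 6 libraries. The proportion of the rare arms was less even in controls: the log2 ratio of miR-122b-5p to miR-122-3p was -0.47, -0.39 and -0.19 with palmitic acid and -1.65, 1.83 and 1.47 in controls (exact permutation p = 0.4), on 2 to 26 and 3 to 7 control reads.

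**Figure D4:**
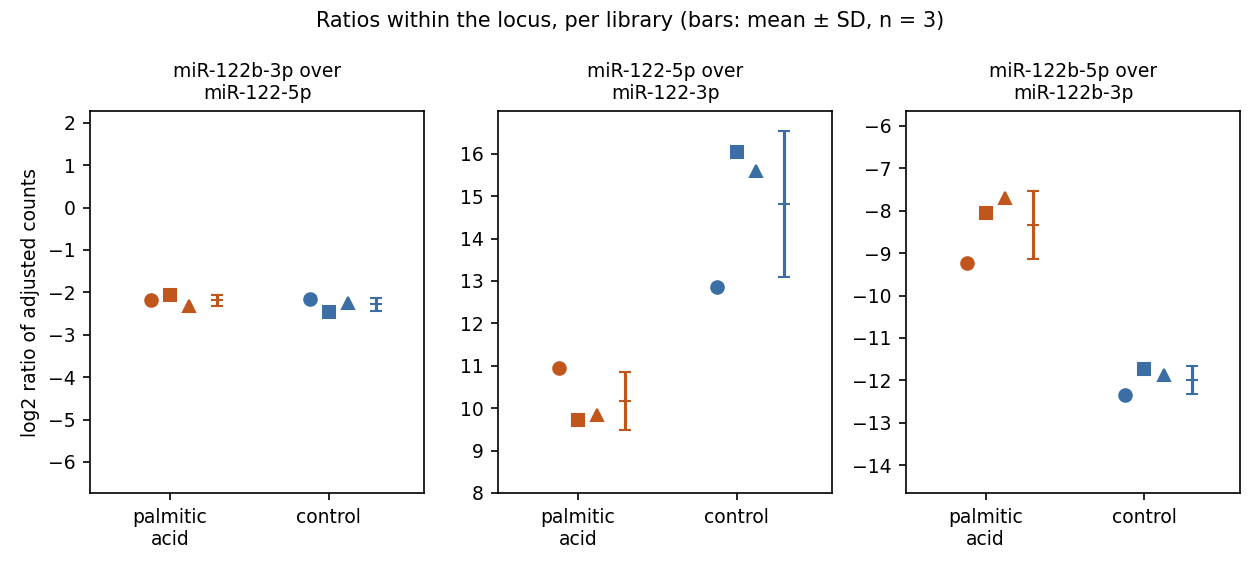
Log2 ratios of adjusted counts within the locus, per library, with palmitic acid (left) and control (right) in each panel, replicates 1, 2 and 3 as circle, square and triangle, and the mean ± SD beside them; the 3 axes have the same span. The ratio of miR-122b-3p to miR-122-5p lies between -2.46 and -2.06 in all libraries, whereas the arm ratios of both hairpins separate the groups. So do the arm ratios of most of the 24 hairpins with both arms measured.

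The same ratio was taken for the opposite-strand pairs whose sequences are shown above, rarer over more abundant partner. It was -4.55 ± 0.11 with palmitic acid and -4.31 ± 0.33 in controls for miR-126b-5p over miR-126a-3p, and -2.78 ± 0.50 with palmitic acid and -2.38 ± 0.19 in controls for miR-30f over miR-30e-3p (SD, n = 3 each). It was -3.17 ± 0.39 with palmitic acid and -4.34 ± 1.15 in controls for miR-3074-5p over miR-24-3p, and -2.45 ± 0.39 with palmitic acid and -2.15 ± 1.67 in controls for miR-203b-5p over miR-203-3p. The rarer partners had between 1 and 150 reads in a library, against 12129 to 88555 for miR-122b-3p, so their ratios carry more counting error.

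Over the 6 libraries, the miRNA with the pattern most like that of miR-122-5p was miR-122b-3p. Reads of the 2 hairpins could not be separated with certainty, so this may not be a likeness of separate molecules. Likeness was the root mean square difference of the deposited log2 values after each miRNA was centred on its own mean, and it was 0.13 for miR-122b-3p, against a median of 3.05 over the 180 other tested miRNAs and 5.30 for the least alike, miR-17-5p. miR-139-5p (0.57), miR-10a-5p (0.78), miR-7075-3p (0.79) and miR-1198-5p (0.95) followed. Since they were chosen for this pattern, their values are a description with no test. miR-139-5p, a miRNA linked to restraint of tumour growth, had deposited log2 values of 3.27, 2.23 and 3.74 with palmitic acid and 5.98, 7.84 and 7.42 in controls. miR-10a-5p, encoded in the Hoxb cluster, had 7.62, 7.93 and 7.87 with palmitic acid and 9.62, 11.72 and 12.18 in controls. Like miR-122-5p, both were lowest among controls in replicate 1. The mature sequences of these 4 are shown with the seed, bases 2 to 8, in capitals, and no seed is shared among them (RNA, from RefSeq's table for GRCm38.p6).
miR-139-5p: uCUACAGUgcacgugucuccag
miR-10a-5p: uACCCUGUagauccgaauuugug
miR-7075-3p: cAACCAUGucuucuuucccag
miR-1198-5p: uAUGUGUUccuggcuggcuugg

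None of the tested hepatocyte miRNAs outside the locus passed as lower with palmitic acid on the deposited scale. Of a list of 10 hepatocyte miRNAs that leaves out miR-122, 9 were tested, of which 0 passed as lower, 4 did not pass and 5 passed as higher. Among all 181 tested miRNAs, 14.4% passed as lower and 42% as higher. With 9 tested, the counts of the list are not read as a difference from those shares. For 2 of the 5, miR-193a-3p and miR-365-3p, only palmitic acid libraries reached the filter, which fixed their direction. Without them 3 of 7 passed as higher and 0 as lower, beside 43 and 23 of the 145 miRNAs counted in the same way. The median log2 change of those 7 was 1.08, beside 1.05 for the 145. Under the alternatives, 4 to 6 of the list were higher, those 2 included, and 0 to 2 lower, and the summed adjusted count of the list overlapped between the groups (62119 to 133534 with palmitic acid, 22914 to 149321 in controls). The pair miR-101a-3p and miR-101b-3p, which target the chromatin enzyme Ezh2, rose by 4.65 (SE 0.53, limma adjusted p = 1.6e-04) and 5.44 (SE 0.56, limma adjusted p = 9.8e-05). miR-193a-3p had 220, 324 and 104 reads with palmitic acid and 0, 3 and 0 in controls. miR-365-3p had 104, 120 and 125 reads with palmitic acid and none in controls.

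miR-192-5p, an abundant miRNA of liver and gut, had deposited log2 values of 14.46, 13.97 and 14.00 with palmitic acid and 11.56, 13.53 and 11.53 in controls. It rose by 1.94 (SE 0.61, limma adjusted p = 0.0259), but the call was lost without control replicate 1 or 3 (0.0852 and 0.0834) or palmitic acid replicate 1, 2 or 3 (0.0867, 0.0602 and 0.0728), and in 10 of 17 alternatives in all (limma adjusted p 1.2e-04 to 0.128). miR-148a-3p, the second most abundant miRNA over all libraries, had deposited log2 values of 16.04, 15.23 and 16.76 with palmitic acid and 14.07, 17.03 and 14.44 in controls. Those groups overlapped through control replicate 2, the library with the highest miR-122-5p, at a log2 change of 0.83 (SE 0.92, limma adjusted p = 0.453; 1.75 with adjusted p = 0.0254 without that library). miR-194-5p (-0.23), miR-22-3p (-0.66) and miR-215-5p (1.08) did not pass (limma adjusted p = 0.720, 0.259 and 0.192), although with library totals outside the locus miR-194-5p (-1.38) and miR-22-3p (-1.81) passed as lower, the second also with upper-quartile scaling (-1.21) and centring (-1.45). miR-802-5p was not tested, with 11, 4 and 0 reads with palmitic acid and none in controls.

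**Figure D5:**
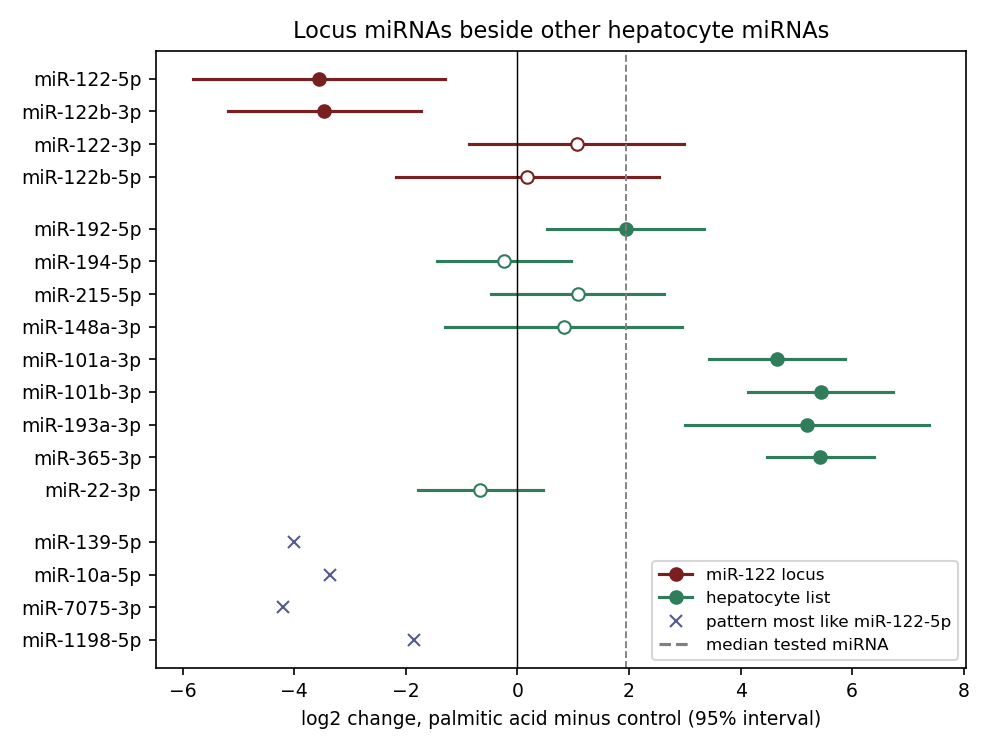
Log2 change, palmitic acid minus control, of the 4 locus miRNAs and the 9 tested miRNAs of the hepatocyte list (points with 95% intervals from limma, filled where the adjusted p is below 0.05), and of the 4 other miRNAs chosen for a pattern like that of miR-122-5p (crosses, no test); the dashed line is the median tested miRNA at 1.94. No miRNA of the hepatocyte list lies as low as miR-122-5p (-3.56), the lowest being miR-22-3p at -0.66. Nearly all tested miRNAs lie above miR-122-5p, which is at rank 10 from the lowest of 181. The direction of miR-193a-3p and miR-365-3p was fixed by the filter on low values. Without the miRNAs that passed this filter through 1 group alone, the median is 1.05.

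Summed markers of some other cell types did not overlap between the groups. Of all tested miRNAs taken singly, 68% did not overlap, 19.3% as lower and 48.6% as higher. The summed adjusted count of 9 biliary or other epithelial miRNAs was 2121 to 4129 with palmitic acid and 345 to 689 in controls, a sum carried by miR-182-5p. Of the 4 tested, miR-182-5p rose by 2.79 (SE 0.45, limma adjusted p = 0.00115) and miR-183-5p did not pass (1.51, limma adjusted p = 0.0798), while miR-96-5p and miR-31-5p were higher but reached the filter through palmitic acid libraries alone, with no control read of miR-96-5p and 2, 0 and 0 of miR-31-5p. The miR-200 family members of the list were not tested: miR-200b-3p had 13, 10 and 0 reads with palmitic acid and 7, 0 and 31 in controls, and miR-429-3p had none with palmitic acid and 0, 0 and 14 in controls. The sum was lower with palmitic acid for 4 striated muscle miRNAs (6.85 to 19.4 with palmitic acid, 171 to 693 in controls), of which 1 of 1 tested fell (miR-206-3p, -5.06), and for 3 erythroid miRNAs (8.73 to 42.3 with palmitic acid, 68.6 to 1675 in controls), of which miR-451a did not pass (-3.20, limma adjusted p = 0.0764) and miR-486a-5p was lower but reached the filter through controls alone (4, 7 and 2 reads with palmitic acid, 57, 4 and 26 in controls). The sums of 6 immune and Kupffer cell miRNAs (73.5 to 106 with palmitic acid, 109 to 471 in controls; 1 of 2 tested fell, miR-146a-5p at -2.13, a call lost in 8 of 17 alternatives, and miR-155-5p at 2.23 did not pass, for a median of 0.05) and of 6 stellate cell and fibroblast miRNAs (145 to 265 with palmitic acid, 300 to 733 in controls; none of 3 tested passed, median -1.50) were lower without overlap. Those of 2 endothelial miRNAs (1318 to 1508 with palmitic acid, 876 to 1862 in controls; none of 1 tested passed) and 2 neuronal miRNAs (0 to 4.78 with palmitic acid, 0.434 to 803 in controls; none tested) overlapped. As a percentage of the adjusted counts outside the locus, however, the endothelial sum was lower without overlap (0.442 to 0.562 with palmitic acid, 0.705 to 1.64 in controls), and miR-126a-3p changed by -1.08 with library totals outside the locus (limma adjusted p = 0.0460) and by 0.068 on the deposited scale (0.879). The muscle markers miR-133a-3p and miR-208a-3p and the erythroid miR-144-3p had no read in any library. The muscle marker miR-1a-3p had 4, 0 and 0 reads in controls and none with palmitic acid, so miR-206-3p carried the muscle sum. The part of these markers, and of library depth, in the lower miR-122 levels was not tested.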

How the data were processed

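Small RNA of 6 vesicle libraries was read from 1 deposited table of 1976 miRNAs. The authors' table is named as raw counts, but its deposited values are log2 values that are not whole numbers. The submitters' processing notes list bedtools, Bowtie2 and 2 names of the mouse build (mm10, GRCm38), with neither role nor version; how reads were counted is not given in the sources used here. Values fit log2(adjusted count + 1), the adjusted count being a read number mapped to the same quantile of a negative binomial at one effective library size, which leaves the sums unequal, a step that no label states and which other libraries may have entered. It was inverted to recover reads (fitted dispersion 1.39). Of 4387 values tested, 96.7% came out whole within 0.0015 on the log2 scale. The plan named limma for log2 values, and another test only if the table held raw counts. As the values were log2, limma (3.58.1, under R 4.3.3) was used with its variance trend, two-sided and Benjamini-Hochberg adjusted. It was fitted over the 181 miRNAs whose adjusted count reached 10 in 3 or more libraries. Arm ratios were fitted by limma without a trend, with 0.5 added to each arm. Shares and ratios were compared by exact permutation tests. Scripts were checked on simulated data. The members and lists were chosen with earlier results of these data known. Named miRNAs are the members, tested list members (4 per list, all for hepatocytes), the 10 most abundant and the 5 most like miR-122-5p; mature sequences of 1736 miRNAs matched RefSeq's table by name.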

Additional observations from a re-analysis of the deposited data

How the results depend on the processing

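The change of miR-122b-3p kept its direction and passed the threshold in every alternative run. The shares of the locus and of its abundant arms, and the ratio of miR-122b-3p to miR-122-5p, kept their direction. Their exact permutation tests give at least p = 0.1 with 3 libraries against 3, so those could not cross 0.05 in any alternative. With the replicate block, the differences in shares and in that ratio equal the main ones by arithmetic. miR-122-5p stayed negative but missed the threshold with no filter on low values (-3.56, limma adjusted p = 0.0558), and its change lay between -4.24 and -2.74 when single libraries were left out. Between libraries with the same replicate number in both groups, deviations from the group means had correlations of 0.21, 0.15 and 0.038. Differently numbered libraries were not compared, so whether the numbers pair the libraries was not tested. With the replicate block, miR-122-5p was at -3.56 (limma adjusted p = 0.105), miR-122b-3p at -3.46 (0.00713), the mir-122 arm ratio at -4.66 (0.0310) and the mir-122b arm ratio at 3.66 (0.0668), with 83 miRNAs higher and 28 lower. Leaving out single libraries, the arm ratios ran from -5.64 to -4.05 for mir-122 and from 3.35 to 4.11 for mir-122b.

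miR-122-3p turned to -0.0249 with library totals outside the locus, as did miR-122b-5p (-0.90), miR-148a-3p (-0.32), miR-215-5p (-0.00491) and miR-126a-3p (-1.08). miR-122b-5p was also negative with upper-quartile scaling (-0.34) and centring (-0.61) and ran from -0.59 to 1.01 over the fits without 1 library; miR-126a-3p was at -0.48, -0.72 and -0.25 to 0.29 in the same fits, and miR-194-5p at -0.62 to 0.12 in the last. Library totals turned miR-194-5p to 0.74, miR-22-3p to 0.31 and miR-143-3p to 0.0742. The number of miRNAs that passed as lower, 26, was 60 with no filter, 10 with library totals, 45 with totals outside the locus and 40 with centring; the 76 higher became 50 with the stricter filter, which tests fewer miRNAs and leaves out both rare arms. For the others the cause was not tested. Chosen after seeing the data, a count without miRNAs that passed the filter through 1 group only left 3 hepatocyte miRNAs higher, against 5. Of the alternatives planned, 766 of 886 recomputed values kept their call or stayed within the spread between replicates. These include shares from recovered reads and replicate-block differences, which could hardly move. Depth limits the rare arms most, with 2 to 26 control reads.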
